A study of Mus musculus with 6 samples.

Results

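The 10 genes of an imprinted growth network followed here in mouse satellite cells were H19, Igf2, Igf2r, Dlk1, Meg3, Cdkn1c, Peg3, Mest, Plagl1 and Grb10. The rule that picks their rows uses gene names and no threshold on a measured value, and all 10 were found among the 27366 features of the expression table, 1 row each. Satellite cells are the stem cells of skeletal muscle. The RNA came from cells kept in growth medium with fetal bovine serum and basic FGF, and was taken at day 4 by the sample titles. The study asks what the gene Islr does in these cells, and compares 3 libraries labelled control with 3 labelled Islr knockout. Beyond these genotypes, the sources used here give no allele, no Cre driver, no strain, sex or age, and no statement of which part of Islr was removed. Nor do they name the animals or cultures behind each library, so a p-value here sets a difference against library-to-library spread, part of which may be technical.

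Imprinted genes are read mainly from the chromosome inherited from a single parent, and which parent's copy is active is set by DNA methylation laid down in the germ line. Igf2 and H19 are the textbook pair: Igf2, a growth factor, is read from the paternal copy, and H19, a long noncoding RNA, from the maternal copy, with shared enhancers and an insulator bound by CTCF between them. Paternally expressed members of the network, such as Igf2, Dlk1, Peg3, Mest and Plagl1, tend to promote growth, and maternally expressed members, such as H19, Igf2r, Cdkn1c and Grb10, tend to restrain it. In muscle, H19 is known as an abundant RNA of embryonic and regenerating tissue that rises when myoblasts differentiate, and it is the host of the microRNA miR-675.

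Among the members, H19, Mest, Igf2 and Meg3 hold microRNAs, and those of H19 and Mest are shown here. On GRCm38 the Mir675 hairpin lies at chr7:142577064-142577147 on the minus strand, inside an exon of H19, and 3 of the 7 annotated H19 transcripts hold it. Mir335 lies at chr6:30741299-30741396 on the plus strand, within Mest but in no exon of its 11 annotated transcripts. The hairpin is shown for H19, where it lies within exonic RNA. Mir770, in an exon of 1 of the 11 annotated Meg3 transcripts, is not shown. Sequences are from RefSeq (GRCm38.p6), written 5′ to 3′. Capitals in the hairpin mark both mature strands, and capitals in the mature microRNAs mark the seed, bases 2 to 8, which pairs with target RNAs.
Mir675 hairpin: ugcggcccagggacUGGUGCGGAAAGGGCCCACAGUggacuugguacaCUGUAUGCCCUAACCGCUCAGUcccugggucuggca
miR-675-5p: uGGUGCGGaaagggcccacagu
miR-675-3p: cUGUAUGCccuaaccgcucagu
miR-335-5p: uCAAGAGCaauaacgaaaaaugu
miR-335-3p: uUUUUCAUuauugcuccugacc
These 4 seeds were each found once among the 1738 mature mouse microRNAs of the table, so none of them formed a seed group. The libraries measured gene reads and not mature microRNAs, so the levels below are those of the host genes.

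Reads on genes ranged from 16456917 to 20531276 per library, and the deposited values are reads divided by a factor per library of 0.8581 to 1.1948, called scaled reads here. Of 17 listed satellite cell markers, Pax7, the transcription factor that defines these cells, ranged from 1233 to 2729 scaled reads and Myod1 from 18888 to 33818. Calcr, of the same list, had 0 to 5.555 scaled reads. The satellite cell list summed to 57396 to 78373 scaled reads per library, and the 35 genes of the myogenic differentiation list to 63639 to 910084. Islr itself had 181.1, 12.82 and 1579 scaled reads in control 1, 2 and 3 and 256.7, 7.381 and 10.88 in knockout 1, 2 and 3, so the library labelled knockout 1 goes against its label and control 2 was as low as a knockout. Each replicate number joins a control and a knockout library. With each group's mean subtracted, libraries with the same number deviated together across 14280 genes, with correlations of 0.689, 0.633 and 0.625. Those between different numbers were -0.513 to -0.245, but the subtraction itself pushes these below 0 when the same-numbered ones are positive. Myog, the factor that starts differentiation, was not called between numbers (adjusted p = 0.157). It had 43370 and 37228 scaled reads in the number 1 libraries, 417.2 and 1998 in those of number 2, and 43261 in control 3 against 5737 in knockout 3.

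Per kilobase of exon, the scale used here to compare genes, H19 stood far above the other members, with a mean of 40978 scaled reads per kilobase over the 6 libraries. The length is that of all annotated exons of a gene joined, which can exceed that of any single transcript. Its lowest library, 22256, was above the highest value of any other member, 3461 for Mest. Peg3 (mean 932), Mest (884), Igf2r (657), Grb10 (525), Cdkn1c (448) and Plagl1 (348) followed, and neighbours in this order overlapped in their ranges over libraries. The place of Cdkn1c rests on control 3, at 2581 scaled reads per kilobase: in the other 5 libraries it had 8.57 to 39 and was below Igf2 in each. Igf2 had 37.7 to 216 scaled reads per kilobase, below the lowest Plagl1 value of 271, and was above Mest in both number 1 libraries (91.8 against 59.1, and 216 against 84.4). On this scale Meg3 (2.77 to 18.1) and Dlk1 (0.807 to 15.7) were lowest and overlapped each other. Their joined exons span 18089 bases for Meg3 and 5657 for Dlk1, so the place of each depends on the length used.

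**Figure D1:**
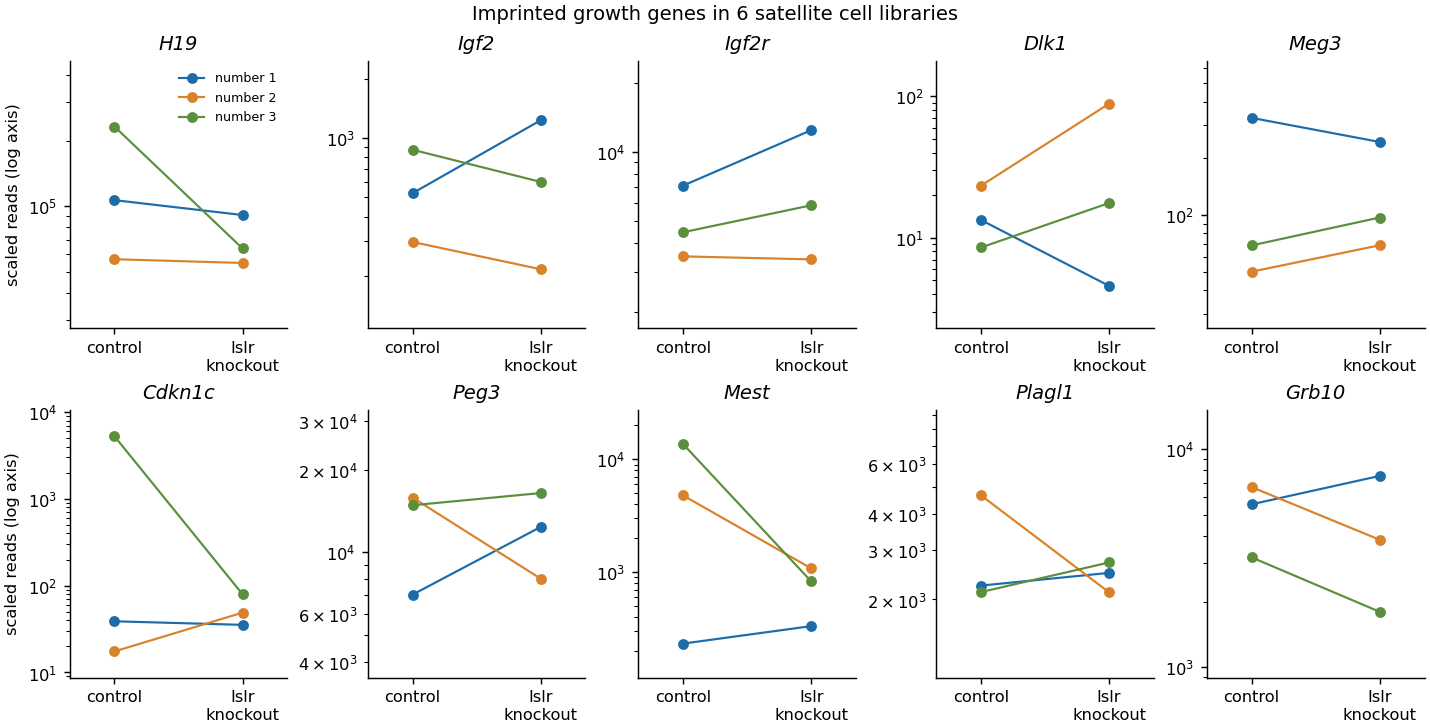
Scaled reads (log axis, 1 panel per gene, each with its own range) in the control and Islr knockout libraries, with a line joining the libraries of the same replicate number. Control and knockout values overlap in all 10 panels, and control 3 is the highest library for H19, Cdkn1c and Mest.

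No member differed between the labelled groups past the threshold, and the groups overlapped for all 10. Across the 20344 genes with a mean of at least 1 scaled read, which include all 10 members, limma called 0 genes (0%) at an adjusted p of 0.05, and 276 (1.36%) had an unadjusted p under 0.05, none of them a member. With the replicate number as a block, 933 genes (4.59%) were under an unadjusted p of 0.05, again with no member among them, and 0 passed after adjustment. Groups without overlap were found for 968 genes, 4.76% of those tested (539 higher in the knockouts, 2.65%, and 429 lower, 2.11%). Fold changes below are on the scale of log2(scaled reads + 1), knockout over control, with 3 libraries a group. All 10 adjusted p-values were 1 without the block.

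H19, the maternally expressed noncoding RNA, lies at chr7:142575529-142578143 on the minus strand. It was read 106453, 56964 and 231933 times (scaled) in control 1, 2 and 3 and 90928, 54749 and 63815 times in knockout 1, 2 and 3. Control 3 was the highest library and the number 2 libraries were the lowest in each group, so that 2 of 3 knockouts lay inside the range of the controls. As a share of all gene reads, H19 took 0.569%, 0.291% and 1.33% in the controls and 0.484%, 0.299% and 0.379% in the knockouts. It was the most abundant gene of control 3, and ranked 6th or 16th in the other libraries. The fold change was -0.72 ± 0.49 on the log2 scale (SE; 95% interval -1.83 to 0.40; unadjusted p = 0.179), and with the replicate block the interval was -1.50 to 0.07 (adjusted p = 0.92). H19 was the only member lower in the knockout of every number, with differences of -0.23, -0.06 and -1.86, a pattern shown by 12.1% of all genes tested. Without control 3 the fold change was -0.19.

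Igf2, the growth factor that neighbours H19, lies at chr7:142650766-142666816, 72.6 kb from it. The controls had 525.5, 297.2 and 874.5 scaled reads and the knockouts 1234, 215.9 and 600.1. Knockout 1 was the highest and knockout 2 the lowest of all libraries, so the knockouts spanned more than the controls did. Its fold change was 0.08 ± 0.66 (SE; 95% interval -1.45 to 1.60), and it changed sign to -0.52 without knockout 1 and to -0.32 without control 2. Within numbers the knockout was higher by 1.23 in number 1 and lower in the others, at -0.46 and -0.54. Per kilobase, H19 exceeded Igf2 by 171-fold in knockout 1 to 617-fold in control 3, with a median of 459-fold. The antisense transcript Igf2os, which overlaps Igf2, had 17.58 to 51.99 scaled reads, and no source used here says whether reads were counted by strand. Gm49394, a protein-coding gene annotated on the same strand at chr7:142650769-142669942, also overlaps Igf2 and has no values here. How reads shared by overlapping genes were counted is not stated, and its part in the Igf2 level was not tested.

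Igf2r, the receptor that takes IGF2 to the lysosome for breakdown, lies at chr17:12682406-12769664. Its levels were 7115, 3498 and 4457 scaled reads in the controls and 12413, 3394 and 5840 in the knockouts. The number 1 libraries were the highest of each group and the number 2 libraries the lowest. Between groups the fold change was 0.38 ± 0.48 (SE; 95% interval -0.70 to 1.47), with a narrower interval of -0.10 to 0.87 under the replicate block, and it turned to -0.11 without knockout 1. Airn, the noncoding RNA that silences Igf2r on the paternal chromosome and overlaps it on the other strand, had 227.8, 66.42 and 115.9 scaled reads in the controls and 408.4, 27.68 and 46.03 in the knockouts. It too was highest in number 1, and reads of the overlapping genes cannot be told apart if strand was not used.

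Cdkn1c encodes p57, a cyclin-dependent kinase inhibitor that takes cells out of division, and sits 791.5 kb from Igf2 at chr7:143458339-143461050. Control 1 and 2 had 38.88 and 17.48 scaled reads, control 3 had 5262, and the knockouts had 35.37, 48.9 and 79.51. A single library therefore held nearly all of the signal, 6174 reads against 15 to 95 in the others, and the range over libraries was 301-fold, wider than that of 99.7% of genes with a mean of at least 10 scaled reads. Within number 3 the knockout was lower by a log2 difference of -6.03, and only 3 of 14280 genes were lower still. Between groups the fold change was -1.58 ± 2.24 (SE; 95% interval -7.21 to 4.05), and without control 3 it was 0.96. In the authors' deposited table Cdkn1c has a log2 fold change of -5.02 with no p-value, and DESeq2 on recovered reads gave the same. A second count model, edgeR, gave -5.01 (unadjusted p = 0.0497, adjusted p = 1). With no filter edgeR gave -5.02 (unadjusted p = 0.123), and with the replicate block -1.57 (unadjusted p = 0.384).

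Control 3 was also the library with the most Islr, the most H19 and the most Mest. The fibroblast and fibro-adipogenic list, to which Islr belongs, summed to 7271, 5398 and 12378 scaled reads in the controls and 6908, 10267 and 12988 in the knockouts, so control 3 was the highest control but not above knockout 3. Of its 14 genes none was at 0 in every library, and 4, among them Pi16, were under 10 scaled reads in all 6. The part of other cells, of differentiation or of this 1 library in the Cdkn1c, H19 and Mest values was not tested. In bulk RNA, fewer cells of a type and less RNA per cell cannot be told apart.

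Dlk1, a transmembrane protein of the Notch ligand family that is read from the paternal copy, and Meg3, the maternally expressed noncoding RNA of the same locus, lie 77.7 kb apart on chromosome 12. Dlk1 (chr12:109452823-109463336) had 13.33, 23.31 and 8.523 scaled reads in the controls and 4.563, 88.57 and 17.58 in the knockouts. It was near the floor of detection, with 4 to 21 reads in all libraries but knockout 2, which had 96. Its fold change was 0.49 ± 0.98 (SE; 95% interval -1.72 to 2.71), 1.31 in edgeR (adjusted p = 1), and -0.55 without knockout 2. Knockout 2 also had the highest sum of the 10 endothelial markers, 1772 scaled reads against 358.2 to 1508 in the others, and a fibroblast sum of 10267. Their part in the Dlk1 value was not tested.

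Meg3 (chr12:109541001-109571726) had 327.7, 50.11 and 69.04 scaled reads in the controls and 244.1, 69.19 and 97.09 in the knockouts. Both number 1 libraries lay above all the others, at 244.1 and 327.7 against 50.11 to 97.09, whatever their genotype. Its fold change was 0.17 ± 0.76 (SE; 95% interval -1.55 to 1.90), and the sign turned under edgeR (-0.13) and without knockout 1, control 2 or control 3 (-0.35, -0.35 and -0.12). The ratio of Meg3 to Dlk1 per kilobase, which depends on the joined exon lengths, ran from 0.244 in knockout 2 to 16.7 in knockout 1.

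Mest, also called Peg1, encodes a hydrolase-fold protein read from the paternal copy and lies at chr6:30723547-30748465. The controls had 233.3, 4792 and 13655 scaled reads and the knockouts 333.1, 1082 and 829.4. Both number 1 libraries were low, control 2 and control 3 were the highest of all, and knockout 2 and knockout 3 lay between. The fold change was -1.89 ± 1.62 (SE; 95% interval -6.01 to 2.23; unadjusted p = 0.293), and it was -0.66 without control 3 and -3.59 without control 1. Within numbers the differences were 0.51, -2.15 and -4.04, and only 43 and 11 of 14280 genes were lower in number 2 and number 3. Blocked on the number and without both number 1 libraries, limma gave -3.09 (adjusted p = 0.0265) in a fit that called 93 of 20129 genes, 0.462%. That fit rests on 4 libraries, and leaves out control 1 as well as knockout 1, whose Islr goes against its label. Without knockout 1 alone, limma with no block gave -1.39 (unadjusted p = 0.508). The number 2 pair, which the blocked fit keeps, had low Islr in both libraries. In the authors' deposited table Mest has a log2 fold change of -3.06, a p-value of 0.0186 and an adjusted p-value of 1. Copg2, whose end overlaps that of Mest on the other strand, had 611.7 to 1463 scaled reads, and was highest in control 3 as well.

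A start of Mest is shown because no other member with a promoter window had so wide a range over libraries. The window covers 250 bases before to 50 after an annotated start (GRCm38.p6, chr6:30737800-30738099, plus strand), and capitals mark GCGGCA, the reverse complement of TGCCGC, the core letters known to be bound by ZFP57 where methylated.
Mest window: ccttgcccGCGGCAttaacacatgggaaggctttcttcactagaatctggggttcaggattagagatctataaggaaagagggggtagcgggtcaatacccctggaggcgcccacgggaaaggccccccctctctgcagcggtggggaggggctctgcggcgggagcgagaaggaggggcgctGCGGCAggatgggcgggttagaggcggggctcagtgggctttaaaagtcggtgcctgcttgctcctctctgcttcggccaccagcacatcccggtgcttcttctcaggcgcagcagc
It holds the letters 2 times, at -242 and -67 from the start, and 17 CpG against a median of 7 in all windows. Of the other Mest windows, that at chr6:30737803-30738102 overlaps it, and that at chr6:30733256-30733555 holds the letters 0 times and 8 CpG. The range over libraries picks the gene and not the window. TGCCGC, searched on both strands, was in a window of 5 of the 8 members that have one (Igf2, Meg3, Mest, Plagl1 and Grb10) and in 6 of their 15 windows, 2 of which overlap at Mest, against 11.6% of all 32851 windows. The E-box CANNTG was in 9 of the 15 windows against 72.3% of all, its form CAGCTG in 1 (16.3% of all) and its form CACCTG in 2 (20.2% of all), where both forms are also counted as CANNTG. GGGGCCCC, searched as letters known from PLAGL1 sites, was in 1 window, that of Peg3, against 1.08% of all. H19 and Cdkn1c have no window in the table. A match is a description of letters, and methylation was not measured here.

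Peg3, a paternally expressed zinc finger gene, lies at chr7:6703892-6730431. It had 7025, 15823 and 14838 scaled reads in the controls and 12372, 8031 and 16428 in the knockouts. The lowest and the highest library belonged to different groups, with all levels within 2.34-fold. Peg3 had a fold change of -0.01 ± 0.40 (SE; 95% interval -0.91 to 0.90), and its sign changed with the scaling (0.04 with library size). The differences within numbers were 0.82, -0.98 and 0.15.

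Plagl1, a zinc finger transcription factor known to act on other imprinted genes, lies at chr10:13060504-13131694. The controls had 2239, 4666 and 2124 scaled reads and the knockouts 2483, 2119 and 2703. Control 2 was high and the other 5 libraries were close together, between 2119 and 2703. Plagl1 had a fold change of -0.21 ± 0.34 (SE; 95% interval -0.98 to 0.55), and 0.15 without control 2. This was the narrowest range of the members, 2.2-fold over libraries.

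Grb10, an adaptor that binds the insulin and IGF receptors and dampens their signal, lies at chr11:11930508-12038683. Its levels were 5579, 6687 and 3187 scaled reads in the controls and 7525, 3838 and 1796 in the knockouts. Number 3 was the lowest of each group, and the knockout was higher in number 1 and lower in number 2 and number 3 (0.43, -0.80 and -0.83). The fold change was -0.40 ± 0.52 (SE; 95% interval -1.58 to 0.78), and 0.13 without knockout 3.

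**Figure D2:**
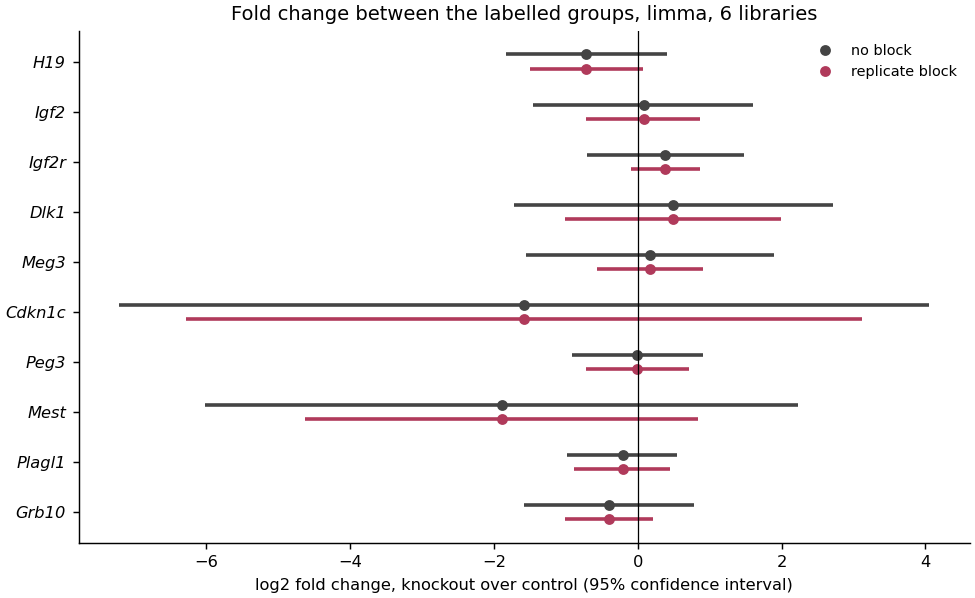
Log2 fold change of each member, knockout over control, with its 95% confidence interval from limma (6 libraries), without a block in grey and with the replicate number as a block in red. All 20 intervals include 0, and those of Cdkn1c and Mest are the widest.

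The library labelled knockout 1, whose Islr level goes against its label, touched the members unequally. Without it the fold changes were -0.92 for H19, -0.52 for Igf2, -0.11 for Igf2r, 1.45 for Dlk1 and -0.35 for Meg3. They were -1.31 for Cdkn1c, -0.04 for Peg3, -1.39 for Mest, -0.23 for Plagl1 and -0.90 for Grb10. Igf2, Igf2r and Meg3 changed sign, and limma still called 0 genes.

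**Figure D3:**
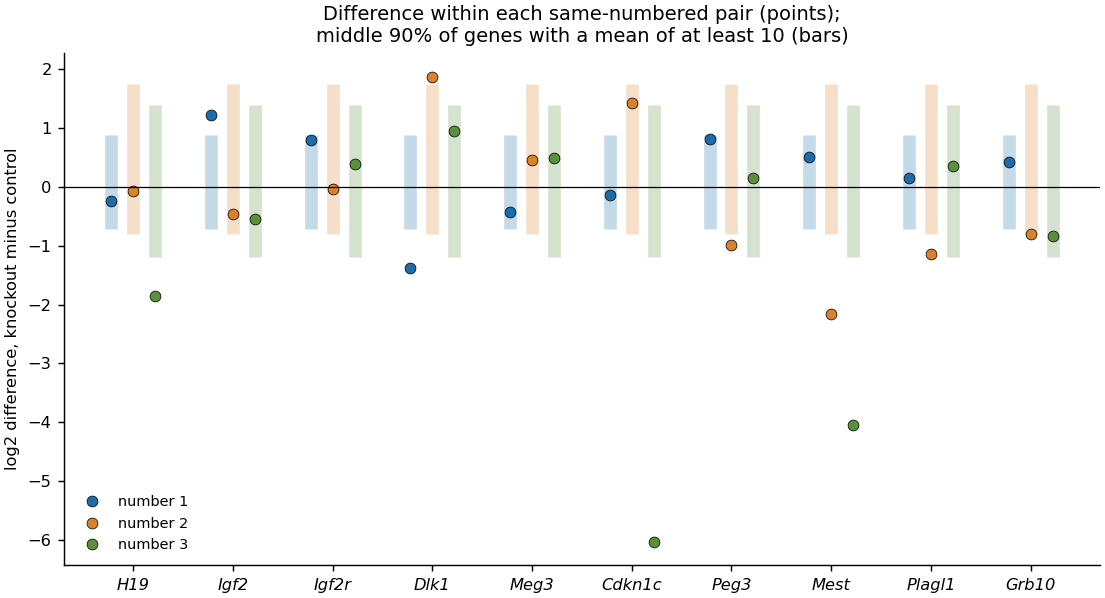
Log2 difference, knockout minus control, within each replicate number (points) for the 10 members, with the middle 90% of the 14280 genes with a mean of at least 10 scaled reads in the same pair (bars). Cdkn1c and Mest in number 3, at -6.03 and -4.04, lie far below the bar, and only H19 is below 0 in all 3 numbers.

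The replicate numbers separated some members where the genotype labels did not. A moderated F test in limma, with genotype in the fit, called 1291 of 20344 genes between numbers (6.35%), and 2 of the 10 members were among them; edgeR called 514 genes, 3.62%. These were Igf2r (adjusted p = 0.0343) and Meg3 (adjusted p = 0.0279), both highest in number 1. Grb10 (0.0615) and Igf2 (0.075) followed with adjusted p-values above the threshold. Both calls were lost when single libraries were left out, which leaves 1 library in the number concerned. Igf2r lost its call without control 1 (0.0898), control 3 (0.137), knockout 1 (0.26) or knockout 3 (0.106) and under edgeR (0.0585). Meg3 lost it without control 1 (0.204), control 2 (0.0749), control 3 (0.0972), knockout 1 (0.092) or knockout 3 (0.0734).

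Of the sum of squares over libraries, the number held 94.7% for Meg3, 84.2% for Igf2r, 77.0% for Igf2 and 74.8% for Grb10, and the group held 0.8%, 8.7%, 0.2% and 8.0%. The number has 2 degrees of freedom and the group 1. H19 had the largest share between groups, 24.7%, and Mest the next. The members' medians were 62.3% between numbers and 7.6% between groups, beside 68.4% and 7.3% over 14280 genes, so the members were divided much as other genes were. Their log2 range over libraries had a median of 2.30 beside 1.18 over those genes. Cdkn1c (8.15), Mest (5.87) and Dlk1 (4.01) were the widest, and Peg3 (1.23) and Plagl1 (1.14) were near the median gene.

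**Figure D4:**
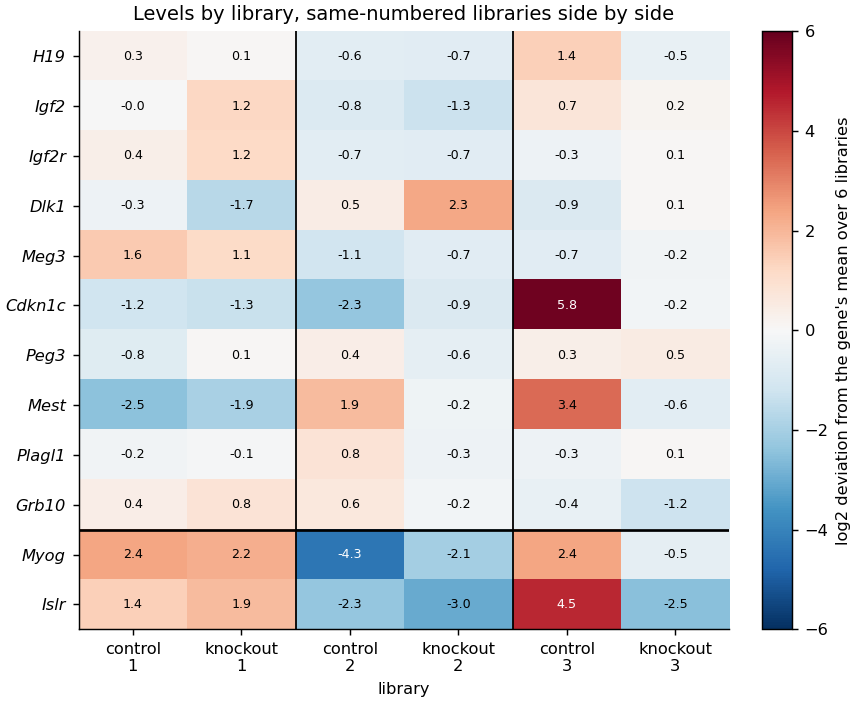
Log2 deviation of each member, and of Myog and Islr, from its own mean over the 6 libraries, with same-numbered libraries side by side (red above, blue below the mean). Meg3 and Igf2r are above their mean in both number 1 libraries, Mest is below its mean there, and Cdkn1c, Mest, H19 and Islr have their highest value in control 3.

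Part of the myogenic differentiation list also differed between numbers. Its 35 genes summed to 861033, 63639 and 480160 scaled reads in the controls and 910084, 79770 and 150192 in the knockouts. Between numbers 11 of them (31.4%) were called, beside 6.35% of all genes tested. Both number 1 libraries, where Igf2r and Meg3 were highest and Mest lowest, had the highest sums. In number 3 the median log2 difference of the list, knockout minus control, was -1.93, and in number 2 it was 1.26. Mest was lower in the knockout in both of these pairs (-4.04 and -2.15). The 12 cell cycle genes summed to 80150 and 55172 in number 2, against 28137 to 43678 in the other libraries. Of these genes 7 (58.3%) were called between numbers. The part of either list in the members' levels was not tested.

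Other imprinted genes outside the network were measured for 38 of 40 symbols on a list, and 35 were tested. Between the labelled groups 0 were called, with a median log2 fold change of 0.07 (19 higher, 16 lower), beside -0.11 for the 10 members (4 higher, 6 lower) and 0.03 for all genes. Between numbers 9 of the 35 (25.7%) were called, beside 6.35% of all genes tested. Ddc, the neighbour of Grb10 that encodes DOPA decarboxylase, had 158.9 and 160.9 scaled reads in number 1, 20.98 and 11.07 in number 2 and 343.5 and 84.53 in number 3 (adjusted p = 0.0137 between numbers). Zdbf2, a paternally expressed zinc finger gene, had 1362 and 3772 in number 1 against 164.2 to 531 elsewhere (adjusted p = 0.0154), the same highest number as Meg3 and Igf2r. Slc38a4, an amino acid transporter, was highest in number 2, at 208.6 and 228.8 against 21.31 to 112.2 (adjusted p = 0.0155).

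Near the members, Slc22a18, of the same cluster as Cdkn1c, had 0, 0 and 0.8523 scaled reads in the controls and 2.282, 2.768 and 5.022 in the knockouts (unadjusted p = 0.0308, adjusted p = 1). The groups did not overlap, but these are a few reads per library. Rian, the noncoding RNA downstream of Meg3, had 562.2, 120 and 377.6 scaled reads in the controls and 546.5, 379.2 and 426 in the knockouts, and overlapped between groups. Zim1, beside Peg3, had 398.6 to 1072 scaled reads and Usp29, on its other side, 143.7 to 447.5.

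The IGF system around Igf2, Igf2r and Grb10 showed no call between the labelled groups. Of 30 listed genes 29 were tested, with a median log2 fold change of 0.22 (21 higher, 8 lower). Between numbers 5 (17.2%) were called, beside 6.35% of all genes tested. Igf1, the other IGF ligand, had 66.66, 4.661 and 257.4 scaled reads in the controls and 108.4, 13.84 and 28.46 in the knockouts, lowest in number 2 of each group as was Igf2. Its receptor Igf1r stayed between 1591 and 2174 scaled reads, and Insr, the insulin receptor, between 440.1 and 1078. Those called between numbers included 3 genes of binding proteins, which hold IGF outside the cell. Igfbp2 had 474.4 and 229.3 scaled reads in number 1 and 3401 and 5844 in number 3 (adjusted p = 0.00824), and Igfbp3 and Igfbp5 were called as well, while Igfbp4, Igfbp6 and Igfbp7 were not. The other calls were Stc1 and Stc2, inhibitors of the protease that cuts binding proteins. That protease, Pappa, had 27.77, 4.661 and 23.86 scaled reads in the controls and 42.21, 31.37 and 135.6 in the knockouts (unadjusted p = 0.0487, adjusted p = 1), without overlap.

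Among factors that keep imprints or bind the H19 insulator, levels differed widely. Ctcf, the insulator protein, had 1243 to 2742 scaled reads, Zfp57 247.3 to 437.7, and Trim28, the corepressor that ZFP57 recruits, 6159 to 15236. Ctcfl, a germ line relative of CTCF, had 0 to 4.563 scaled reads and Dnmt3l 0 to 6.696. The median log2 fold change of this list's 17 tested genes was -0.14, with 0 calls between the labelled groups. Between numbers 1 (5.88%), Dnmt1, was called (2268 to 7682 scaled reads, adjusted p = 0.0485), beside 6.35% of all genes tested. Among 12 genes linked with H19 or miR-675, 0 were called in either comparison. Hmga2, a growth-linked chromatin protein, had 3353 to 11053 scaled reads and was lowest in control 3, while Lin28a and Lin28b were at most 4.613.

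The genes most like each member over the 6 libraries were ranked by Pearson's r of log2(scaled reads + 1) among 14280 genes. Unannotated loci among these were left out of the ranking. The ranks are a description of 6 points that share replicate numbers, and carry no p. Cdkn1c had Hsdl2 (r = 0.994), Ccn5 (0.992) and Tspyl4 (0.990), all highest in control 3: Ccn5 had 382.7 scaled reads there and 2.331 to 8.303 elsewhere. Mest had Armcx2 (0.996), Ehd3 (0.988) and Zfp362 (0.985). H19 was nearest to Tpi1, a glycolytic enzyme (0.997), with 13886 scaled reads in control 3 and 8210 to 10684 elsewhere. Meg3 was nearest to 9930104L06Rik (0.998) and Mir22hg, the host of a microRNA (0.987), Igf2 to Cfap97 (0.998) and Igf2r to Dync1li2 (0.996). Grb10 had Gm49883 (0.998), Ldlrad3 (0.994) and Top1 (0.993), Peg3 had Gxylt2 (0.989), Plagl1 had Lzic (0.988) and Dlk1 had B4galt1 (0.989). No member was among the 3 genes most like another member, where the third place had an r of 0.956 or more. Between members r ran from -0.95 (Dlk1 with Igf2) to 0.85 (Igf2r with Meg3, and Cdkn1c with H19).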

How the data were processed

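RNA was sequenced from 6 libraries, 3 control and 3 Islr knockout. The submitters' processing notes name HISAT2 2.0.5, an aligner, and DESeq2 1.16.1, besides Trimmomatic, HTSeq and edgeR 3.18.1. What each did, the strand setting and the build are not stated in any source used here. The main deposited table holds a signal, gene reads divided by a size factor per library: whole reads were recovered for 100.0% of values (tolerance 0.01). A second deposited table holds raw counts, equal for all 480 genes in both. The authors' log2 fold changes, p-values and adjusted p-values stand in the main table. The deposited FPKM values, in 12 further columns, were left unused, and 36 damaged lines were dropped. The table column used for control 1 has 2 digits of its name exchanged against the label. Of 27093 Ensembl genes, 27065 were found in GENCODE M21 (GRCm38), 26923 of them with equal coordinates.

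Genes with a mean of at least 1 scaled read were tested with limma 3.58.1 (trend, robust; R 4.3.3) on log2(scaled reads + 1), two-sided, with Benjamini-Hochberg adjustment over 20344 genes and a threshold of 0.05. A moderated F test compared replicate numbers. edgeR 4.0.16 and DESeq2 1.42.0 on recovered reads, other scalings, pseudocounts and filters, the replicate block and left-out libraries were alternatives. The procedures were tested on simulated data in which a chosen set of genes differed between genotypes and only another chosen set between numbers. That test therefore does not show how they perform on libraries like these. The replicate numbers pair the libraries by the data, since all 3 same-numbered pairs correlated above 0.1; the labels do not say what a number marks. Named genes were the 10 members, the 3 genes most like each, the genes of smallest p per list and fixed reference genes; further neighbours and list members, Ccn5 among them, and the TGCCGC motif were picked after values were seen. Members and lists were chosen with earlier results of these data known. Promoter windows, 8 of 10 members, and microRNAs are from RefSeq; 12 of 15 member windows had their bases after the start in a GENCODE transcript of the same strand and 0 matched the other strand.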

Additional observations from a re-analysis of the deposited data

How the results depend on the processing

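Between the labelled groups 0 genes were called, also with each library left out (0 to 0), except for 7 genes with DESeq2 and the replicate block and 93 with limma and the block without number 1, Mest among them. With all 6 libraries, the block changed no call of a member. Between numbers 1291 genes were called, (Igf2r and Meg3 among them), against 566 with a pseudocount of 0.1, 3309 with no filter, 795 with a mean of at least 10 and 514 with edgeR, and 291 (without knockout 1) to 2513 (without knockout 2) with a library left out. The adjusted p between numbers ranged from 1.34e-04 to 0.26 for Igf2r, above the threshold in 7 of 14 alternatives, and from 2.25e-04 to 0.204 for Meg3, in 6 of 14. Leaving a library out keeps 1 library in its number, so the test then rests on that library alone for the number. Without knockout 3, where control 3 alone stood for number 3, H19, Cdkn1c and Mest came under the threshold. So did Mest without knockout 1, Igf2 and Grb10 without control 1, and Plagl1 without knockout 2. With no filter on low values, Igf2 (0.00471), Dlk1 (0.0449) and Grb10 (7.71e-04) did too.

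Fold changes turned sign in 8 members, none past the threshold in either direction; the cause was not tested. With a library left out the ranges were -0.52 to 0.74 for Igf2, -0.11 to 0.83 for Igf2r, -0.55 to 1.45 for Dlk1, -0.35 to 0.99 for Meg3, -3.12 to 0.96 for Cdkn1c, -0.38 to 0.27 for Peg3, -0.42 to 0.15 for Plagl1 and -0.90 to 0.13 for Grb10. H19 (-1.20 to -0.19) and Mest (-3.59 to -0.66) kept their direction. With the replicate block, Igf2 was -0.50 without number 1, Dlk1 -0.20, Peg3 0.48 and Plagl1 0.25 without number 2, and Cdkn1c 0.65 without number 3. Meg3 was -0.13 with edgeR, -0.12 with DESeq2 size factors, -0.13 with edgeR and no filter, and -0.12 with DESeq2. Peg3 was 0.04 with library size scaling and 0.00 with edgeR and the block. Without the block, Mest, Cdkn1c and Dlk1 were further from 0 in edgeR (-3.05, -5.01 and 1.31) than in limma (-1.89, -1.58 and 0.49). With 3 libraries a group, intervals for Cdkn1c and Mest span several log2 units, and Dlk1 rests on 4 to 96 reads.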

Other observations

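Markers of cell types that a sorted satellite cell culture could still hold were not called between the labelled groups. All 10 endothelial genes had a fold change above 0 (median 0.88), as did 10789 of the 20344 genes tested. Their median log2 difference was 0.03 in number 1, 1.26 in number 2 and 1.25 in number 3. Sums were 364.4, 770.3 and 514.8 scaled reads in the controls and 358.2, 1772 and 1508 in the knockouts, so the groups overlapped. All 12 cell cycle genes had a fold change below 0 (median -0.21), with 0 called between the labelled groups. Cdh5, the endothelial cadherin, had 138.9, 226.1 and 161.1 scaled reads in the controls and 110.7, 597.8 and 632.7 in the knockouts. The macrophage list summed to 240.1 to 393.8 in the controls and 143.7 to 1134 in the knockouts, and the Schwann cell list to 876.3 to 2426 and 1991 to 3194. Ngfr, a receptor of Schwann cells, had 250.5 to 331.1 scaled reads in the controls and 335.4, 900.4 and 934.1 in the knockouts, without overlap (unadjusted p = 0.0239, adjusted p = 1). The pericyte and smooth muscle list, which holds Acta2 and Des, had a median of 0.36. Its sums were 27614 to 105519 in the controls and 38766 to 91295 in the knockouts. The satellite cell list had 57396 to 78373 over all 6 libraries. Des, also on the myogenic differentiation list, had 76325, 14090 and 39596 scaled reads in control 1, 2 and 3, so these sums do not measure pericytes alone. Of the satellite cell list, 17 genes had a median of -0.17, and Fgfr4, a receptor of this lineage, had 557.7, 987 and 3159 scaled reads in the controls and 532.8, 396.7 and 468.7 in the knockouts (unadjusted p = 0.0419, adjusted p = 1).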
